A study of Mus musculus with 3 samples.

Results

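Leukocytes with little or no RNA of the complement C1q genes made up 83 of the 14573 cells sequenced from the developing mouse prostate. A cell was counted when it held a unique molecular identifier (UMI, a tag that counts captured RNA molecules) for at least 2 of the 5 pan-leukocyte genes *Ptprc*, *Laptm5*, *Tyrobp*, *Fcer1g* and *Coro1a*, for fewer than 2 of *C1qa*, *C1qb* and *C1qc*, and for neither of the epithelial genes *Cdh1* and *Cldn4*. The cells were thus chosen by the measured values of these 10 genes, which are given as a description only. The study prepared droplet single cell RNA-seq libraries from male urogenital sinus (UGS, the embryonic tissue that forms prostate buds) at embryonic day E18.5, and from prostate at postnatal days 14 and 35, with 1 library in each of the 3 groups. All 3 tissues were labelled normal, from mice of mixed C57BL/6 and 129S1/SvImJ backgrounds, and the labels give no genotype. The study followed cells with R26mTmG/+:Osr1Cre/+ mice, in which a Cre recombinase driven by the *Osr1* promoter turns on a membrane-bound green fluorescent protein. Cell barcodes ended in 1, 2 or 3, and the labels give no key from these endings to the tissues. The cell number that the study states for the UGS was that of set 1, whereas those stated for the other tissues matched neither remaining set. A cell number is not a label, so the cells are described by barcode set (set 1, 2 or 3) and no ages were compared. With 1 library per group there was no replicate and no test, and every interval below is a 95% interval for counting error only.

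Leukocytes enter an organ from blood and lymph or arise from resident precursors. Neutrophils, monocytes and dendritic cells form the myeloid branch and T, B and natural killer (NK) cells the lymphoid branch, whereas tissue macrophages are the usual source of C1q, the recognition protein of the classical complement pathway. *Ptprc* encodes CD45, a phosphatase carried by nearly all leukocytes, and *Laptm5* a lysosomal membrane protein of blood cells. *Tyrobp* and *Fcer1g* encode adaptors that pass receptor signals through ITAM motifs, mostly in myeloid and NK cells, and *Coro1a* encodes an actin regulator of haematopoietic cells.

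The leukocyte genes of the rule lie on 3 chromosomes of mm10, in the RefSeq annotation of GRCm38.p6: *Ptprc* at chr1:138062859-138175756, *Fcer1g* at chr1:171229572-171234349, *Laptm5* at chr4:130912890-130936148, *Tyrobp* at chr7:30413782-30417582 and *Coro1a* at chr7:126699774-126704816. Start regions are shown for *Ptprc* and *Laptm5* because these 2 genes hold, within 250 bases before to 50 after an annotated start, the letters GAGGAA or their reverse complement TTCCTC, the core of the sites bound by PU.1, the myeloid and B cell factor encoded by *Spi1*. The sequences are from RefSeq, 5′ to 3′ on the gene's own strand, with the match in capitals.
*Ptprc*, chr1:138175256-138175555, minus strand: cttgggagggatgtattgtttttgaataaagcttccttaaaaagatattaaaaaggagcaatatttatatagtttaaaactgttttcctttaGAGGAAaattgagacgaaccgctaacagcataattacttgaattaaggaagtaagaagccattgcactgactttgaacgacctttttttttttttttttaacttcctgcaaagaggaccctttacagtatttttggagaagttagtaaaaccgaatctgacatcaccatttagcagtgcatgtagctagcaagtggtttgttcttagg
*Laptm5*, chr4:130913066-130913365, plus strand: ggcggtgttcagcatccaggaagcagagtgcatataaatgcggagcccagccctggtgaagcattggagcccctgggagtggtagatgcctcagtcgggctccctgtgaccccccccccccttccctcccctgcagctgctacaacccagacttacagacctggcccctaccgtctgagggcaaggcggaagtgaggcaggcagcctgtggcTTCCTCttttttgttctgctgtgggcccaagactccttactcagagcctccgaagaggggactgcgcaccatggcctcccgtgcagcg
Windows of 2 of the 4 leukocyte genes that had a window held a match on either strand, while 31.3% of the 27025 genes with a window did. The match is a description of the letters and not a binding site.

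Set 1 held 10 such leukocytes among 766 cells (1.31%, exact interval 0.628 to 2.39), and 0.783% without the cells of sub-cluster 1 described below. Set 2 held 1 among 5350 cells (0.0187%, 0.000473 to 0.104), and set 3 held 72 among 8457 (0.851%, 0.667 to 1.07). Most of these leukocytes came from set 3, although set 1 had the higher share with an overlapping interval, and the single cell of set 2 is described alone. C1q leukocytes, which met the same conditions but had at least 2 C1q genes, numbered 24, 8 and 79. The cells without C1q were thus 29.4% of both kinds in set 1 (10 of 34, 15.1 to 47.5) and 47.7% in set 3 (72 of 151). The sets differed in depth before any selection, with a median of 19357 UMIs per cell in set 1, 1738 in set 2 and 1788 in set 3. The leukocytes without C1q had a median of 9261.5 UMIs in set 1 (4287 to 23951), 2994 in the cell of set 2 and a median of 2166.5 in set 3 (761 to 5072). Sets 2 and 3 shared 13 barcodes and sets 1 and 2 shared 1. No barcode was shared between members of different sets, and 2 members had a barcode that also occurred in another set.

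Among all 83 cells, *Tyrobp* and *Laptm5* were each detected in 60, *Coro1a* in 59, *Fcer1g* in 57 and *Ptprc* in 44. At the edge of the rule in set 3, 17 members had exactly 2 leukocyte genes, and 45 cells that met the other conditions had only 1. *Srgn*, a proteoglycan of leukocyte granules that the rule did not use, had 2117 UMIs per 1000000 (CPM) in the cells just inside and 153.6 in those just outside. *Cd53*, a leukocyte tetraspanin, had 618 CPM inside and 24.8 outside, and *Col1a2*, a fibrillar collagen gene, 29.4 inside and 689 outside. *Tpm2*, a tropomyosin of smooth muscle, was similar on both sides (2088 and 2082 CPM). It was found in 5 of the 17 cells just inside, and 53 of their 71 UMIs were in 1 cell. Its rate was 284 CPM in members with 3 leukocyte genes and 113 in those with 4.

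**Figure D1:**
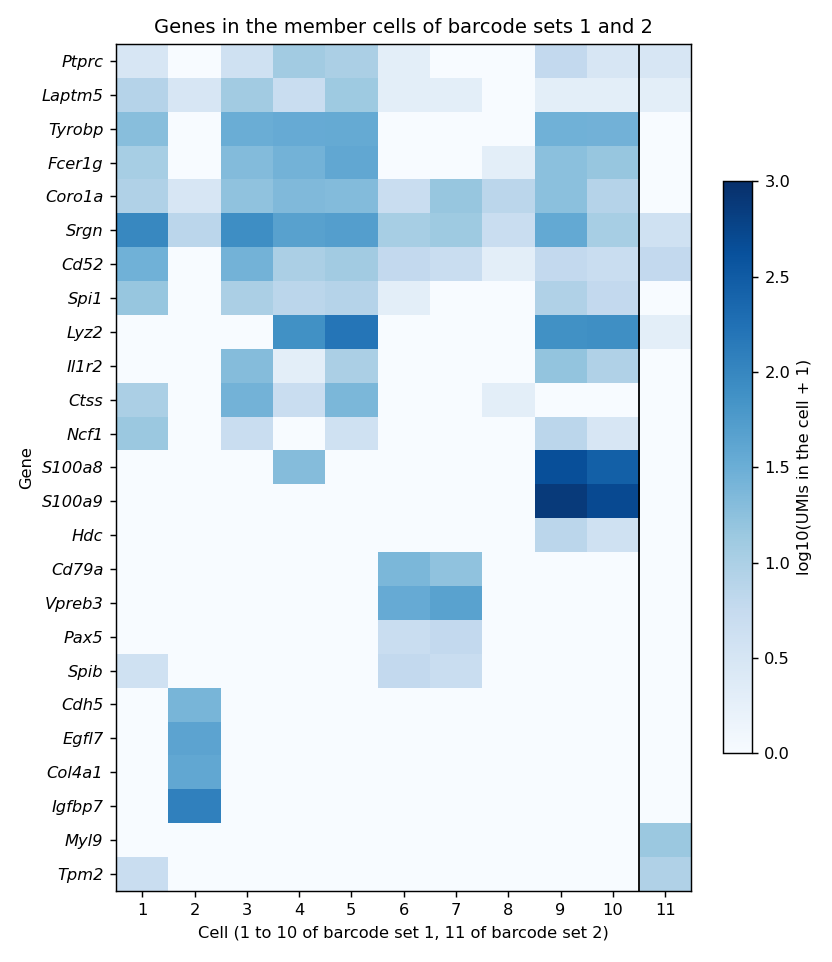
Colour gives the UMIs of a gene (rows) in each member cell (columns) of barcode sets 1 and 2, as log10 of UMIs plus 1. *S100a8* and *S100a9* were highest in cells 9 and 10, the B lineage genes *Cd79a* to *Spib* were found together in cells 6 and 7, and the endothelial genes *Cdh5* to *Igfbp7* stood in cell 2 alone.

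The 10 deeply sequenced cells of set 1 fell into different profiles, seen cell by cell. Cells 9 and 10 were dominated by the antimicrobial calprotectin genes of neutrophils, with 443 and 274 UMIs of *S100a8* and 749 and 508 of *S100a9*. The same 2 cells held all 130 UMIs of *Lcn2*, a granule siderophore-binding protein, and 6 and 3 UMIs of *Hdc*, the histamine-forming enzyme. *S100a9* was found in 1 of the 685 cells of set 1 without any leukocyte gene (0.146%), and *S100a8* in 1.46%, at median depths of 9261.5 UMIs for the members and 19037 for those cells.

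Cells 6 and 7 instead held genes of the B lineage. *Cd79a*, the signalling chain of the B cell receptor, had 23 and 16 UMIs, and *Vpreb3*, made by B cell precursors, had 34 and 44. *Pax5*, the factor that sets B cell identity, had 4 and 5 UMIs, and *Spib* had 5 and 4. Neither cell had *Tyrobp* or *Fcer1g*, and in the 24 C1q leukocytes of set 1 both *Cd79a* and *Vpreb3* were at 0. In set 1 cells without a leukocyte gene, *Vpreb3* was found in 0.73% and *Cd79a* in 6.13%, the latter at 2.43 CPM against 362 in the members.

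Cells 4 and 5 held 76 and 156 UMIs of *Lyz2*, the lysozyme of myeloid cells, with 34 and 35 of *Tyrobp*. Cells 1 and 3 had no *Lyz2*, but the highest *Srgn* (96 and 82 UMIs) and *Cd52* (28 and 26), the latter a small surface glycoprotein of leukocytes. All of cells 1, 3, 4, 5, 9 and 10 expressed *Spi1*, at 14, 9, 6, 7, 8 and 5 UMIs, and all had the 5 leukocyte genes of the rule. The remaining cells sat less clearly under the leukocyte label. Cell 2, the deepest at 23951 UMIs, met the rule with 2 UMIs each of *Laptm5* and *Coro1a* but held 24 of *Cdh5* (endothelial cadherin), 42 of *Egfl7*, 38 of *Col4a1* and 116 of *Igfbp7*, so its profile went against that label. Cell 8 met it with 6 UMIs of *Coro1a* and 1 of *Fcer1g*, and the cell of set 2 with 2 UMIs of *Ptprc* and 1 of *Laptm5* beside 13 of the smooth muscle light chain gene *Myl9* and 8 of *Tpm2*.

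The green fluorescent protein sequence (*EGFP*), which marks *Osr1* descendants, gave a reading in set 1 only. It was found in 1 of the 10 leukocytes without C1q (cell 7, 2 UMIs, 18.6 CPM, 2.25 to 67.0) and in 2 of the 24 C1q leukocytes (44.9 CPM, 25.7 to 72.9). In the 685 cells without leukocyte genes it was found in 54.0%, at 643 CPM (632 to 655). The rate in the leukocytes was thus lower than in those cells, and both kinds of leukocyte had overlapping intervals. In sets 2 and 3 no leukocyte without C1q and none of the 5288 and 8214 other cells had a UMI of it, so those sets cannot be read for lineage.

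In set 1, 970 genes had at least 10 UMIs in the members, and 179 of them (18.45%) were at least 4-fold higher than in cells without leukocyte genes. The count was 161 without the cells of sub-cluster 1 described below. Cell 2 held 23951 of the 107814 UMIs of the members, and 4 of the 5 endothelial genes with at least 10 UMIs were called higher. The 10 genes with the highest ratio outside the rule were *Cd52*, *Ctss*, *Spi1*, *Cd53*, *Lilrb4a*, *Ptafr*, *Cytip*, *Itgb2*, *Cd37* and *Lilr4b*. They included a lysosomal protease (*Ctss*), the receptor for platelet-activating factor (*Ptafr*), a regulator of integrin adhesion (*Cytip*) and the shared chain of the leukocyte integrins (*Itgb2*). *Cd52* had 863 CPM (696 to 1057) in 9 of the 10 cells and 0 UMIs in the other cells, and *Spi1* had 464 CPM (344 to 612) against 0.110. Reads of *Lilrb4a* and *Lilr4b* may be shared, since these 2 receptor genes are near-identical copies.

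In set 3, 1105 genes had at least 10 UMIs in the members, and 163 (14.8%) were at least 4-fold higher than in cells without leukocyte genes. The ratio was highest for *Plbd1*, *Il1b*, *Rgs1*, *Cd53*, *Napsa*, *Tnfrsf9*, *Cd69*, *Pkib*, *Ctss* and *Clec12a*. *Rgs1*, which limits chemokine receptor signalling, had 1970 CPM (1759 to 2201) in 57 of 72 members and 0.789 CPM in the 8214 other cells, where 0.146% had a UMI. *Il1b*, the cytokine interleukin-1 beta, had 1600 CPM (1410 to 1809) in 25 members against 0.488, and *Plbd1*, a phospholipase of myeloid granules, 395 CPM (304 to 506) in 28 members against 0. Median depth was 2166.5 UMIs in the members and 1778 in the other cells. *Rgs1* was spread over most cells, with 0 to 29 UMIs and a median of 2, whereas *Il1b* was at 0 in 47 of 72 members and reached 34 UMIs.

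Functional gene lists are given by how many of their genes were called in set 3, beside the 14.8% of all genes tested. Of the leukocyte integrin and selectin list, 12 genes had a row, 8 had at least 10 UMIs and 7 of these were at least 4-fold higher, with a median log2 ratio of 9.16 over the 8 against 0.18 over all genes tested. Among them were *Selplg*, the P-selectin ligand used in rolling (295 CPM), *Itgal*, the LFA-1 alpha chain (87.9 CPM), and *Itgb2* (107 CPM). *Cd44*, an adhesion receptor also used by other tissues, had 232 CPM in members and 255 in other cells. Of the haematopoietic signalling and cytoskeleton list, 15 had a row, 8 had at least 10 UMIs and 7 were at least 4-fold higher (median log2 ratio 5.48), among them the phosphatase *Ptpn22* (107 CPM) and the Src-family kinase *Lyn* (276 CPM). Genes that reached 10 UMIs only because they were high in leukocytes had to differ here, so these counts describe the cells and test nothing.

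Lists of cytokines, granule proteins and pathogen sensors were counted in the same way. Of 17 chemokine and cytokine genes with a row, 5 had at least 10 UMIs and 4 were at least 4-fold higher than in other cells. Of 14 NADPH oxidase and granule genes, 7 had at least 10 UMIs and 5 were called, with *Cybb*, the catalytic oxidase subunit, at 100.4 CPM in 8 members. Of 15 pattern recognition receptor genes, none reached 10 UMIs, and their sum was 132 CPM in members against 18.7 in other cells. The macrophage list (11 genes, C1q left out) summed to 615 CPM in members and 1442 in other cells, of which *Apoe* had 489 and 1184.

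**Figure D2:**
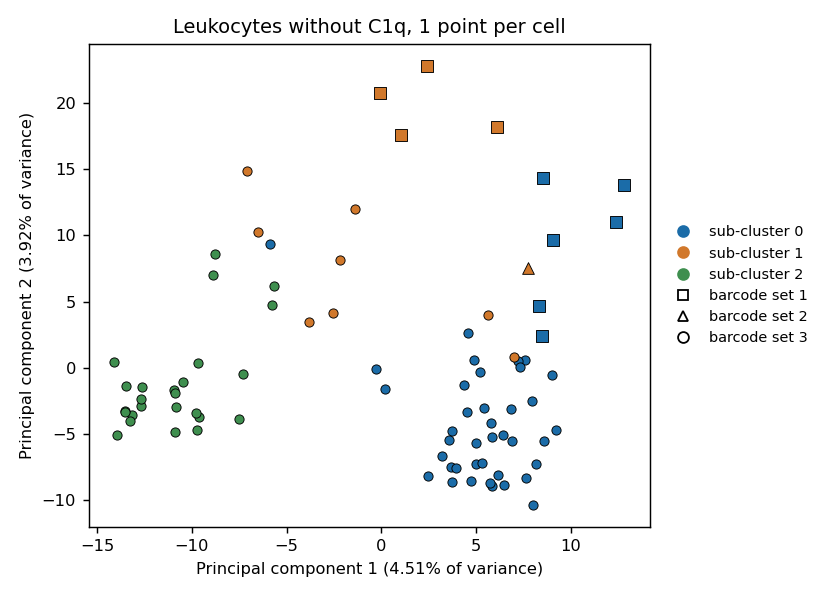
Each point is 1 of the 83 cells, placed by its first 2 principal components over 1446 genes without the 10 genes of the rule. Colour gives the sub-cluster and shape the barcode set. Sub-cluster 2 lay at negative values of the first component and most of sub-cluster 0 at positive values, and cells of set 1 lay at higher values of the second component than most cells of set 3.

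Clustering of the 83 cells without the genes of the rule gave 3 sub-clusters, described here by their leading genes and left without a cell type name. Sub-cluster 0 held 45 cells (6 of set 1, 39 of set 3) and was led by *Lyz2*, *Cxcl2*, *Apoe*, *Thbs1*, *Spi1*, *Il1b*, *Plbd1*, *Etv3*, *Alox5ap* and *Pkib*, most of them genes of myeloid cells. This order pools the sets, and of the 238 UMIs of *Cxcl2* in sub-cluster 0, 182 were in its cells of set 1. When set 3 was clustered alone, the 25-cell cluster that shared most cells with sub-cluster 0 was led instead by *Cd24a*, *Kdm4a*, *Ncoa7*, *Cst3* and *Cd81*. The 39 cells of sub-cluster 0 were then divided, with 24 in that cluster and 15 in a 21-cell cluster that also took in 6 cells of sub-cluster 1 and was led by *Tpm2* and *Apoe*. Sub-cluster 1 held 13 cells (4, 1 and 8 of sets 1, 2 and 3) and was led by *Sparcl1*, *Myl9*, *Id3*, *Cald1*, *Igfbp7*, *Des*, *Tpm2*, *Dcn*, *Col4a2* and *Dut*, mostly genes of smooth muscle, fibroblasts and vessels. Sub-cluster 2 held 25 cells, all of set 3, and was led by *Car2*, *Icos*, *Cd27*, *Ikzf2*, *Bcl2*, *Sult2b1*, *Txk*, *Tiprl*, *Ankrd44* and *Neurl3*, several of them genes of lymphocytes. Its cells were shallow, with a median of 1095 UMIs, against 2725 in sub-cluster 0 and 3702 in sub-cluster 1. Since these genes defined the sub-clusters, the differences between sub-clusters are a description and were not tested. *Tyrobp* or *Fcer1g* was found in 44 of 45, 8 of 13 and 19 of 25 cells of sub-clusters 0, 1 and 2.

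**Figure D3:**
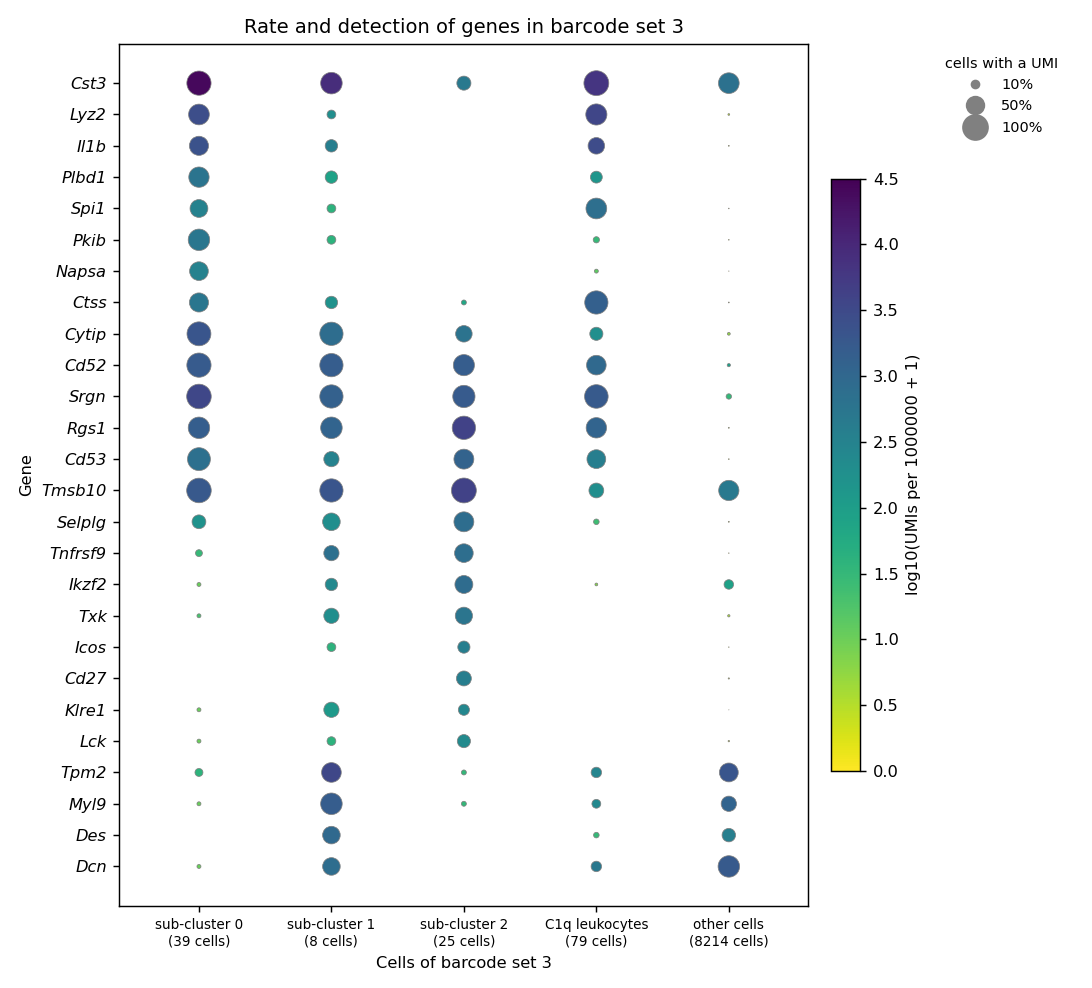
Dots give, for genes (rows) in cells of barcode set 3 (columns), the rate as colour (log10 of UMIs per 1000000 plus 1) and the percent of cells with a UMI as size. *Lyz2*, *Il1b*, *Plbd1*, *Spi1*, *Pkib* and *Napsa* had no dot in sub-cluster 2, *Cd27* had none in sub-clusters 0 and 1, and *Tpm2*, *Myl9*, *Des* and *Dcn* were highest, among the members, in sub-cluster 1.

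Within set 3, *Cst3*, the protease inhibitor cystatin C, was high in sub-cluster 0 but uneven among its 39 cells. It had 0 to 161 UMIs in a cell with a median of 79, or 25383 CPM in all, while the 79 C1q leukocytes had 1 to 42 UMIs with a median of 12 (6288 CPM). In sub-cluster 2 it had 0 to 6 UMIs with a median of 0 (487 CPM, 273 to 803), an interval that includes the 674 CPM of cells without leukocyte genes. At resolution 1.0 most of sub-cluster 0 was split, over all sets, into 22 cells with 33466 CPM of *Cst3* and 1492 of *Lyz2* and 19 cells with 5178 and 6500. *Lyz2*, in set 3, had 2737 CPM in sub-cluster 0 (27 of 39 cells, 0 to 86 UMIs) and 0 UMIs in sub-cluster 2, where the upper bound was 120 CPM. *Il1b* had 2369 CPM in sub-cluster 0 (23 of 39 cells), 398 in sub-cluster 1 and 0 UMIs in sub-cluster 2. *Napsa*, an aspartic protease of antigen-presenting cells, was found in 22 of 39 cells of sub-cluster 0 (338 CPM, 236 to 471) and in no other member of set 3. *Pkib*, a protein kinase A inhibitor, was found in 29 of 39 (551 CPM) and in 1 of the other members of set 3.

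Other genes were detected in part of the 25 cells of sub-cluster 2. *Cd27*, a co-stimulatory receptor of T and NK cells, was found in 9 of 25 (390 CPM, 201 to 680), and in no other member. *Ikzf2*, the lymphoid factor Helios, was found in 13 of 25 (844 CPM, 551 to 1237), *Txk*, a Tec-family kinase of T and NK cells, in 12 (552 CPM), and *Icos*, an inducible co-stimulator of T cells, in 6 (390 CPM). *Tnfrsf9*, the co-stimulatory receptor 4-1BB, was found in 14 of 25 (779 CPM), in 3 of the 8 cells of sub-cluster 1 (716 CPM) and in 3 of 39 of sub-cluster 0 (29.0 CPM). Genes of general leukocyte use stood in both groups. *Cd52* had 1558 CPM in sub-cluster 2 and 1673 in sub-cluster 0, with overlapping intervals, and *Cd53* had 1201 (846 to 1656) and 725 (570 to 909). *Rgs1* had 4155 CPM (3467 to 4941) in sub-cluster 2 and 1518 (1290 to 1775) in sub-cluster 0, and *Cytip* had the opposite order, at 617 and 2021 CPM.

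Sub-cluster 1 mixed leukocyte genes with those of stroma. Its 8 cells of set 3 had 3422 CPM of *Tpm2*, 1552 of *Myl9*, 955 of *Des* (desmin, of muscle filaments) and 796 of *Dcn* (decorin, of fibroblasts), and also 1313 CPM of *Srgn* in 7 of 8 and 1552 of *Cd52* in 7 of 8. The *Tpm2* rate rested largely on 1 cell, which held 53 of the 86 UMIs, and 2 of the 8 cells had neither *Tpm2* nor *Myl9*. Over all 13 cells, 6 carried at least 2 genes of the smooth muscle list and 5 of the fibroblast list, against 1 and 1 of 45 in sub-cluster 0 and 0 and 0 of 25 in sub-cluster 2. In cells of set 3 without leukocyte genes these shares were 37.7% and 56.9%. The part of droplets with 2 cells, or of free RNA, in these 13 profiles was not tested. The sub-cluster also took in the B lineage cells 6 and 7 and the endothelial profile of cell 2 from set 1, so its leading genes did not describe each of its cells.

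Myeloid and lymphoid genes were also counted cell by cell. Taking *Lyz2* or *Spi1* as myeloid and *Lck*, *Cd27*, *Icos*, *Cd28*, *Txk* or *Klre1* as lymphoid, genes chosen after their values were seen, 33 of the 72 members of set 3 had only the myeloid genes, 27 only the lymphoid genes, 1 both and 11 neither. In sub-cluster 2 the counts were 0, 21, 0 and 4 of 25, and in sub-cluster 0 they were 31, 1, 1 and 6 of 39. In the 8 cells of sub-cluster 1 they were 2, 5, 0 and 1. In set 1, 5 of the 10 members had only the myeloid genes, 1 only the lymphoid genes, 2 both and 2 neither. Cell 6, of the B lineage, counted as both with 1 UMI each of *Spi1* and *Lck*. The lymphoid genes held none of the B cell list, and *Spi1* is also a B cell factor. Several of the genes taken as myeloid or lymphoid led the sub-clusters, and each was detected sparsely. The counts thus describe the cells and do not show that the genes exclude each other. Of the 79 C1q leukocytes, 70 had only the myeloid genes, 0 only the lymphoid genes and 2 both. Of 8214 cells without leukocyte genes, 45 had only the myeloid and 124 only the lymphoid genes.

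**Figure D4:**
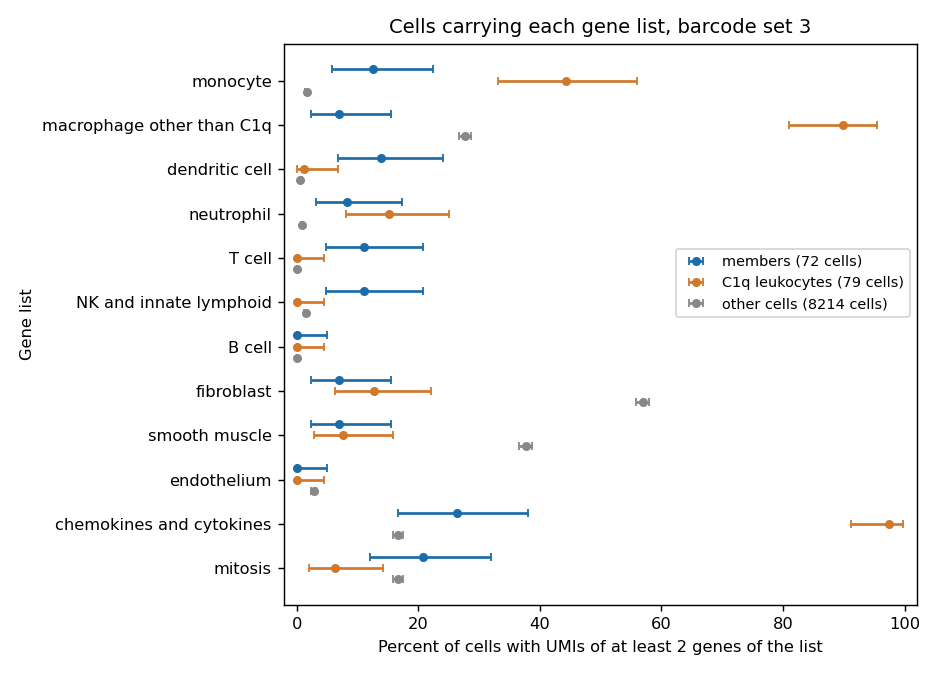
Points give the percent of cells of barcode set 3 with UMIs of at least 2 genes of a list, for the members (72 cells), the C1q leukocytes (79) and cells without leukocyte genes (8214), with exact 95% binomial intervals. Members lay above the C1q leukocytes for the T cell, NK and dendritic cell lists and below them for the monocyte, macrophage, and chemokine and cytokine lists. The points are without thinning, and at 900 UMIs per cell the members' share for the dendritic cell list was 1.49%.

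Cell type lists were also counted cell by cell, where a cell was said to carry a list if it had UMIs of at least 2 of its genes. In set 3 the T cell list (5 genes with a row) was carried by 8 of 72 members (11.1%, 4.92 to 20.7), by 0 of 79 C1q leukocytes, where 3 cells, taken as the limit beside a share of 0, would be 3.80%, and by 0.0365% of cells without leukocyte genes. The NK and innate lymphoid list (5 genes with a row) was carried by 8 members (11.1%), 0 C1q leukocytes and 1.47% of the other cells. It fell to 4.48% of 67 members once each cell was thinned to 900 UMIs, and the T cell list to 8.96%. The members carrying these lists were found mainly in sub-cluster 2, with 7 of 25 for the T cell list and 6 of 25 for the NK list, and in no cell of sub-cluster 0. Within the lists, *Klre1*, an NK receptor chain, was in 9 members of set 3 (75.3 CPM) and in no C1q leukocyte.

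The dendritic cell list (5 genes with a row) was carried by 10 of 72 members (13.9%, 6.87 to 24.1), by 1 of 79 C1q leukocytes (1.27%) and by 0.645% of the other cells. The members' share fell to 1.49% when cells were thinned to 900 UMIs, close to the 1.27% of C1q leukocytes before thinning. The excess of the members was thus not kept at that depth. Its genes *Naaa*, an acid amidase, and *Ifi205*, an interferon-inducible DNA sensor, had 113 CPM each in members, found in 15 and 12 cells, against 41.8 and 11.9 in C1q leukocytes. The other genes of the list had few UMIs in members. *Zbtb46* had 4 UMIs in members and 0 in C1q leukocytes, *Batf3* had 0 and 2, and *Fscn1*, an actin-bundling protein, had 0 and 13, so that 1 gene of the 5 was at least 4-fold higher and 1 at least 4-fold lower in the members. In set 1 the list instead summed to 1326 CPM in members and 78.6 in C1q leukocytes. There, 2 members held 118 UMIs of *Fscn1*. In set 3 the macrophage list was carried by 5 members (6.94%) and 71 C1q leukocytes (89.9%), and the monocyte list by 9 (12.5%) and 35 (44.3%). The macrophage share among members lay below the 27.7% of cells without leukocyte genes, where *Apoe* was found in 62.3%. The neutrophil list was carried by 6 members of set 3 (8.33%), 12 C1q leukocytes (15.2%) and 0.852% of the other cells, and no member of set 3 had 3 of its genes. At 900 UMIs per cell its shares came close, at 4.48% of members and 5.13% of C1q leukocytes, whereas the monocyte list kept 8.96% against 30.8% and the macrophage list 4.48% against 76.9%. In set 1 the neutrophil list was carried by 6 of 10 members, but *S100a9* was found only in cells 9 and 10. Cells 3, 4 and 5 instead held the list genes *Ptafr* and *Il1r2*. The list summed to 21518 CPM in the members of set 1, 929 in its C1q leukocytes and 15.9 in other cells. The B cell list was carried by 2 of 10 members in set 1 and by 0 of 72 in set 3 (a limit of 4.17%). Endothelial, pericyte and erythroid lists were each carried by 0 members of set 3, the glial and mast cell lists by 1 each, and the basophil and eosinophil list had no row here. The epithelial list was carried by 0 members as well, which the rule fixed in part because it left out cells with *Cdh1* or *Cldn4*.

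Against the C1q leukocytes of set 3, 80 of 1520 genes (5.26%) were at least 4-fold higher in the members and 139 (9.14%) at least 4-fold lower, counting genes with at least 10 UMIs in the higher group. The higher genes were led by *Tnfrsf9*, with 45 UMIs in 20 members (282 CPM, 206 to 378) and none in 79 C1q leukocytes, a log2 ratio of at least 3.98 with the empty side set to 3 UMIs. Also among the highest were *Selplg*, at 295 CPM against 23.9 (log2 ratio 3.63, 2.17 to 5.56), *Pkib*, at 364 against 29.9 (3.61), and *Tmsb10*, which binds actin monomers, at 2303 against 197 (3.55, 3.03 to 4.11). *Tmsb10* differed cell by cell, with a median of 4 UMIs and up to 17 in members, and a median of 0 and at most 3 in C1q leukocytes. In set 1 it had 2885 CPM in members, 1331 in C1q leukocytes and 1811 in cells without leukocyte genes. *Napsa*, *Ikzf2* and *Slco3a1* had 35, 33 and 27 UMIs in members and 2, 1 and 1 in C1q leukocytes. *Cd69*, an early activation marker, had 182 CPM against 17.9, and *Ankrd44* had 220 against 23.9. A further row among the 10 highest carries a date as its name, and its gene is not given here. *Cytip* was higher by 3.07 (2.53 to 3.66) on the log2 scale in set 3 and by 4.03 (3.27 to 4.87) in set 1, at 779 CPM against 47.7.

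**Figure D5:**
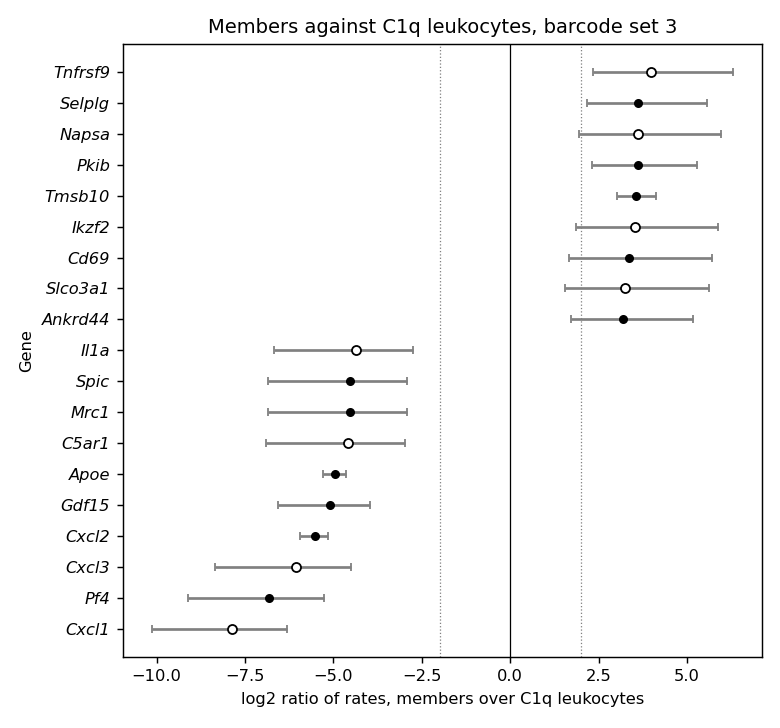
Points give the log2 ratio of rates between members and C1q leukocytes of barcode set 3 for the genes named on the vertical axis, with exact 95% intervals, and dotted lines mark 4-fold. Open points had fewer than 3 UMIs on 1 side, which was set to 3. *Tnfrsf9* was highest at 3.98 and *Cxcl1* lowest at -7.86.

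The 10 lowest genes included chemokine genes and genes of macrophages. *Cxcl2*, a neutrophil-attracting chemokine, had 351 CPM in 9 members and 16184 CPM in 75 of 79 C1q leukocytes (log2 ratio -5.53, -5.93 to -5.14). In set 1 its rate was instead 1688 CPM in members, found in 3 of 10 cells, and 952 in C1q leukocytes. *Cxcl1* had 1 UMI in members against 4359 CPM, *Cxcl3* none against 1260 CPM, and *Pf4* 3 UMIs against 2144 CPM. *Apoe*, a lipid carrier, had 489 CPM against 15210 (log2 ratio -4.96, -5.30 to -4.63), and *Gdf15*, a stress cytokine, had 37.7 against 1290, with all 6 UMIs of the members in 1 cell. The log2 ratio of *Gdf15* was -5.10, but -6.09 with cells holding any C1q gene left out and -3.71 by the mean of each cell's rate. The mannose receptor gene *Mrc1*, the red pulp macrophage factor *Spic*, the complement receptor *C5ar1* and *Il1a* had 3, 3, 2 and 1 UMIs in members, against rates of 388 to 454 CPM. In set 1, *C5ar1* had 213 CPM in members and 480 in C1q leukocytes. *Il1b* did not follow this split to the same extent, at 1600 CPM against 2938 (log2 ratio -0.88, -1.10 to -0.66). Of the 17 chemokine and cytokine genes with a row, 7 were at least 4-fold lower in members and 0 higher, and of the 11 macrophage genes, 9 were lower and 0 higher. At least 2 genes of the chemokine and cytokine list were found in 19 of 72 members (26.4%) and 77 of 79 C1q leukocytes (97.5%), against 16.7% of cells without leukocyte genes. At 900 UMIs per cell these shares were 8.96%, 93.6% and 7.31%. The median depth was 2166.5 UMIs in members and 1910 in C1q leukocytes. *Inpp5d*, a lipid phosphatase of blood cells, had 100.4 CPM in members and 101.5 in C1q leukocytes (log2 ratio -0.02, -1.10 to 1.06).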

How the data were processed

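The libraries were made with a 10x Genomics 3' kit, whose version differs between the labels and the methods of the study. Per the labels and methods, the authors counted UMIs with Cell Ranger 3.1.0 on mm10 with added transgene sequences and filtered out multiplets, empty droplets and cells with much mitochondrial RNA. A correction for free RNA is not described. The deposited table holds natural log values, ln(1 + 10000 × UMIs / cell total), from which whole UMIs and totals were recovered to within 9.4e-07 of a whole UMI. It had 9784 gene rows (9781 used) and covers 49.4% to 52.7% of UMIs, so many markers have no row. No cell was removed here, and no doublet caller was run.

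Rates are summed UMIs per 1000000 of the cells' totals (CPM), given with exact Poisson intervals. Intervals of shares are Clopper-Pearson, and those of log2 ratios come from the exact binomial split of the summed UMIs, where a sum below 3 UMIs was set to 3. A gene was called at a 4-fold difference with at least 10 UMIs in the higher group. Members were clustered with scanpy 1.11.5 (Leiden, resolution 0.5, 20 principal components, 10 neighbours). Steps were tested on simulated data. Genes were named when they were in the rule or the gene lists, among the 10 highest or lowest ratios of a set with UMIs in at least 5 cells, or among the 10 leading genes of a sub-cluster, and Cst3 and EGFP were added after their values were seen. The members, the 17 cell type and 10 functional lists were chosen with earlier results of these data known. Positions and promoter windows are from RefSeq for GRCm38.p6, where 238 of 241 named rows had a position. Sequence of another genome build was not used.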

Additional observations from a re-analysis of the deposited data

How the results depend on the processing

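No paired analysis was possible because there was 1 library in each group. Of 267 values under 18 alternatives, 243 stayed within the counting interval of the reported value (for counts, within 1.5 times), 24 moved and none reversed. Of 180 gene ratios, 173 stayed. By the mean of each cell's rate, the log2 ratio to C1q leukocytes in set 3 moved to -3.71 for *Gdf15*, -4.84 for *Cxcl2* and -4.51 for *Apoe*. That to other cells moved to 10.54 for *Il1b* in set 3 and 8.20 for *Lilrb4a* in set 1. Without cells holding any C1q gene, the ratio to C1q leukocytes moved to -6.00 for *Cxcl2* and -5.35 for *Apoe*. By the mean of each cell's rate, -5.54 for *Pf4*, 4.27 for *Selplg*, 4.23 for *Ikzf2* and 3.96 for *Ankrd44* stayed within their intervals. So did -6.09 for *Gdf15* without cells holding any C1q gene, and -5.98 with 3 leukocyte genes asked for. Leaving out the members of sub-cluster 1 was chosen after seeing the data. Asking for 3 leukocyte genes gave 0.650% of cells in set 3 and 0% in set 2, where leaving out *Ptprc*, *Laptm5* or sub-cluster 1 also gave 0%. With 3 UMIs in place of 10, the genes at least 4-fold above other cells were 392 in set 1 and 344 in set 3. Asking for 3 list genes gave 0% of set 3 members for the neutrophil, NK and dendritic cell lists, 1.39% for the T cell list and 5.56% for the monocyte list. Thinning to 900 UMIs gave 4.48% for the NK list and 1.49% for the dendritic cell list. Resolution 1.0 gave 22 cells in the cluster sharing most cells with sub-cluster 0, and set 3 alone gave 25 for sub-cluster 0 and 21 for sub-cluster 1, though 15 of these 21 were from sub-cluster 0 and 6 from sub-cluster 1. The 25 cells of sub-cluster 2 stayed together at resolution 1.0, and 24 of them stayed together in set 3 alone. The cause of these shifts was not tested, beyond that stricter rules and thinning leave fewer UMIs. The shallowest member of set 3 had 761 UMIs, and how far depth limited the detection of single genes there was not tested.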

Other observations

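A further 12 cells met the leukocyte condition with fewer than 2 C1q genes but were left out because they held *Cdh1* or *Cldn4* (2, 3 and 7 in sets 1, 2 and 3). The 2 cells of set 1 had 1 UMI each of these genes in total and none of *Wfdc2*, *Elf3* or *Spint2*, beside 333 UMIs of *Lyz2* and 134 of *Srgn*. The 3 cells of set 2 had 31 UMIs of *Cldn4*, a tight junction protein of epithelium, with 10 of *Srgn* and 8 of *Cytip*. The 7 cells of set 3 had 19 UMIs of *Cldn4* with 17 of *Srgn* and 21 of *Cd52*. Their epithelial and leukocyte UMIs thus stood in different proportions in the 3 sets.

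A few genes of the mitosis list supplied most of its UMIs in the leukocytes without C1q. Of its 10 genes with a row, 3 had at least 10 UMIs in members of set 3, 1 of them (*Mki67*) was at least 4-fold higher than in cells without leukocyte genes, and 3 (*Aurka*, *Cenpf* and *Nusap1*) were at 0. *Hmgb2* and *Stmn1*, which are not particular to dividing cells, held 108 and 45 of the 190 UMIs, while *Cdc20* and *Tpx2* had 1 and 2. In set 3, 15 of 72 members (20.8%, 12.2 to 32.0) had UMIs of at least 2 genes of the mitosis list, against 5 of 79 C1q leukocytes (6.33%, 2.09 to 14.2) and 16.7% of cells without leukocyte genes. After thinning to 900 UMIs the shares were 14.9%, 1.28% and 4.81%. *Mki67*, a proliferation marker, was found in 12 members of set 3 (138 CPM, 86.5 to 209) against 65.7 CPM in C1q leukocytes and 17.1 in cells without leukocyte genes, found in 8 of 39, 3 of 8 and 1 of 25 cells of sub-clusters 0, 1 and 2.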
